A study of Mus musculus with 7 samples.

Results

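The 39 genes described here carry out or control the oxidation of fatty acids and the making of ketone bodies. They are 39 of the 27583 genes and unnamed probes on the array, and each was found by its gene name in the scanner files or by the current symbol of the accession listed there. By role they are 9 genes of fatty acid activation and the carnitine shuttle, 10 of the mitochondrial oxidation spiral, 3 of electron transfer, 6 of peroxisomal oxidation, 2 of ketone body making, 3 thioesterases with 1 pantetheinase, and 5 regulators and secreted signals. A total of 52 probes represented them, and 11 genes had more than 1 probe. All 39 were tested, and 36 were well above background on every array. Acot12 entered the test through the hepatocyte array alone, Creb3l3 was not well above background on 1 iHep array, and Fgf21 was not on 2 iHep arrays.

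RNA was measured on 7 Agilent arrays with 1 dye, 1 array per sample. Induced hepatocyte-like cells (iHep) were made from MEF, per the labels, by forced expression of transcription factors; this work is known for pairing Hnf4a with a Foxa factor (Foxa1, Foxa2 or Foxa3). Each of 3 types had 1 array, named 4α1, 4α2 and 4α3 in the labels and types 1, 2 and 3 here, and which factor each name stands for is not stated in the sources at hand. Hepatocytes came from livers of adult mice (1 array), and fibroblasts (MEF, 3 arrays) were prepared from embryos of 13.5 days post coitum. All cells had the C57BL/6 genetic background. The arrays MEF 2 and MEF 3 differed by 0.527 to 0.887 times what repeated spots of 1 probe predict, against 3.78 to 4.17 times for MEF 1 and MEF 2, and were counted as 1 sample, although the labels describe 3 MEF samples prepared separately. The groups are thus iHep with n = 3, hepatocyte with n = 1 and MEF with n = 2. No label says that the iHep arrays came from separate cultures. The p-values thus rest on sample-to-sample spread alone, possibly technical, and in iHep that is spread between types. MEF 1 lay on the slide of the iHep arrays, and MEF 2 and MEF 3 shared another slide. The spread between the MEF samples, and the ratios for MEF 1 and MEF 2, thus cannot be told apart from a slide difference.

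Mitochondria and peroxisomes both shorten fatty acids by repeated cycles of oxidation. A long-chain fatty acid is first joined to coenzyme A, is carried into the mitochondrion as a carnitine ester, and there passes through the dehydrogenase, hydratase, hydroxyacyl dehydrogenase and thiolase steps, whose electrons reach the respiratory chain through the electron transfer flavoprotein. Peroxisomes start on very long and branched chains and pass shortened chains on. In the liver much of the acetyl-CoA becomes ketone bodies, which other tissues burn during fasting, and the nuclear receptor encoded by Ppara drives many of these genes there.

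RefSeq start-site windows, each with 250 bases before and 50 after the start of a transcript (build GRCm38.p6), were held for 31 of the 39 genes in 34 windows. The windows of Hadha and Hadhb are shown first because these genes, which encode the alpha and beta subunits of the mitochondrial trifunctional protein, start 273 bases apart on opposite strands and share 228 bases, printed in capitals.
Hadha, chr5:30154931-30155230, minus strand: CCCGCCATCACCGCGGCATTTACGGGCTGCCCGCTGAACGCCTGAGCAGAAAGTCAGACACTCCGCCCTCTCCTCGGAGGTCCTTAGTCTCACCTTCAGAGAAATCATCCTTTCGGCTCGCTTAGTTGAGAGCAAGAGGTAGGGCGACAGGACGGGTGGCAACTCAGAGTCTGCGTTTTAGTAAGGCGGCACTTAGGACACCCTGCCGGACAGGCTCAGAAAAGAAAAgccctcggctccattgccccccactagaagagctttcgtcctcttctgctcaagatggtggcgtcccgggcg
Hadhb, chr5:30155003-30155302, plus strand: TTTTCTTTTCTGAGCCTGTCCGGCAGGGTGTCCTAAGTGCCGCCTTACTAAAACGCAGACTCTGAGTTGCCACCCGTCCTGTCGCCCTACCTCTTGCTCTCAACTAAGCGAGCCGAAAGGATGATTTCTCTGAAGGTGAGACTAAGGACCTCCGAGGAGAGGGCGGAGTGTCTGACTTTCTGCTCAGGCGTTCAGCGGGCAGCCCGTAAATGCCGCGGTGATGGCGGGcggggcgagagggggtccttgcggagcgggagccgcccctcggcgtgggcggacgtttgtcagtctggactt
The next windows are those of Pdk4, which was high in iHep only, of Acadm, which was raised in iHep and higher still in hepatocytes, and of Creb3l3, which was high in hepatocytes only. Capitals mark the letters AGGTCA on either strand, the half-site of many nuclear receptors.
Pdk4, chr6:5496229-5496528, minus strand: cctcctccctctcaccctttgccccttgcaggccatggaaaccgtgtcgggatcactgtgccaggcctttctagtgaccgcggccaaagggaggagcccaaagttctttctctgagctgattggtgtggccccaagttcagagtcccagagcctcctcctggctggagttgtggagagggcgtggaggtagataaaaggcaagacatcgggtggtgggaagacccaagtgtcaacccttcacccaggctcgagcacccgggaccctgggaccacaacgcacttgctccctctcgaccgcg
Acadm, chr3:153944594-153944893, minus strand: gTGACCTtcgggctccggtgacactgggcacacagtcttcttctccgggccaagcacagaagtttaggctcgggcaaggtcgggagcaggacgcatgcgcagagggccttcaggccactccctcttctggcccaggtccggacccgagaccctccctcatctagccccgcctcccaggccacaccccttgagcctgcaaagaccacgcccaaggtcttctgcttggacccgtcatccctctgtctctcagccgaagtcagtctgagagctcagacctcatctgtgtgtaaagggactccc
Creb3l3, chr10:81092542-81092841, minus strand: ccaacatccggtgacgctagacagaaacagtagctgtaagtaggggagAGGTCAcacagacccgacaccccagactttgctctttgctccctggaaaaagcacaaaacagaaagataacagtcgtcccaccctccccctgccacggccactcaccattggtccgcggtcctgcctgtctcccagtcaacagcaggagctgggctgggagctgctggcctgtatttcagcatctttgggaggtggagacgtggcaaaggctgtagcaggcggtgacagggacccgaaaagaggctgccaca
AGGTCA occurred in 6 of the 34 windows (17.65%), against 16.26% of all 32851 windows. The 6 windows were those of Acadm, Acadvl, Cpt1a, Echs1, Acot12 and Creb3l3. TATAAA occurred in 1 window (2.94%), that of Fgf21, against 13.62% of all windows, and CCAAT in 15 (44.12%), against 37.41%. These letters were searched on both strands, and no motif contains another. The 34 windows held a median of 15.5 CpG and 59.5% G and C, against 7 CpG and 52.7% over all windows. A match describes the letters in the window and is no sign that a factor binds there.

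A level is the log2 signal of a probe set against its own array's 75th percentile, which is 0. Values for iHep are in the order of types 1, 2 and 3, and those for MEF in the order of MEF 1, 2 and 3. Levels of different genes come from different probes and are not compared with each other. Changes are log2 differences ± SE from limma with all 3 groups in 1 fit, with p-values adjusted by Benjamini-Hochberg across the 19135 genes tested. A gene is called where its adjusted p is under 0.05.

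Markers were used to check the labels and to give the level of other cell types. All 8 hepatocyte markers were well above background on the hepatocyte array, and 5 to 6 of 8 were in iHep and 2 of 8 in MEF. No iHep or MEF array measured Cyp2e1 or Cyp7a1 well above background. A summed level is the log2 of the sum of the markers' unlogged levels, so the brightest markers weigh most in it. Summed levels of the 8 fibroblast markers were 4.34 to 5.91 in iHep, -0.08 in hepatocytes and 8.65 to 8.71 in MEF. The 6 intestinal epithelium markers were well above background on all iHep arrays. Their summed levels were 7.79 to 9.60 in iHep, 5.20 in hepatocytes and -2.01 to -1.83 in MEF. Against hepatocytes, 5 of the 6 were called higher in iHep and 1 lower (21.5% and 28.3% of all genes). The lower one, Fabp2, was at -2.61, -1.72 and -2.99 in iHep and 4.90 in hepatocytes. The 6 macrophage markers summed to -2.44 to -1.39 in iHep, 1.65 in hepatocytes and 1.95 to 2.70 in MEF, and Adgre1, C1qa, C1qc and Ptprc were not well above background in iHep. Striated muscle markers summed to 0.42 to 1.51 in iHep, -3.86 in hepatocytes and -0.61 to 0.71 in MEF. Myh7 alone was at 1.19, 0.17 and 1.43 in iHep, close to the summed level there, and was 5.27 higher in iHep than in MEF. Des and Tnnt2 had differences of -5.3 and -1.33 in iHep minus MEF, and no iHep array measured Ckm or Myog well above background. Brown and white adipocyte markers summed to -3.31 to -0.23 in iHep, -3.84 in hepatocytes and -4.78 to -4.58 in MEF, with Ucp1, Adipoq and Lep not well above background on any array and Cidea well above it on all iHep arrays, at -4.07, -3.56 and -0.25. What part these cells or programmes have in the levels of fatty acid oxidation genes was not tested. In such bulk RNA, fewer cells with a transcript and less of it per cell cannot be told apart. The 75th percentile of signal was 625 to 1585 per array, and the share of probes well above background was 60.2% to 68.7%.

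Fatty acid oxidation genes were high in hepatocytes, and in iHep most were not called against MEF. Against MEF, 33 of the 39 genes were called higher in hepatocytes and 0 lower by limma (0 lower also at an unadjusted p under 0.05), while 29.2% of all genes tested were called higher and 24.4% lower. In iHep against MEF, 11 of 39 (28.2%) were called higher and 2 (5.13%) lower, while 10% and 13.3% of all genes were. In iHep against hepatocytes, 2 of 39 were called higher and 30 (76.9%) lower, while 21.5% and 28.3% of all genes were. The median change of the 39 genes was 0.37 for iHep minus MEF (all genes -0.05), 2.92 for hepatocyte minus MEF (all genes 0.19) and -2.38 for iHep minus hepatocyte (all genes -0.23). These comparisons share samples, so their counts are not independent. Acot12, among the 33 and the 30, passed the filter through the hepatocyte array alone, so its calls there were favoured and are no support. All 3 iHep arrays lay above every MEF array and below the hepatocyte array for 16 of the 39 genes, against 10.7% of all genes. Every iHep array lay above every MEF array for 19 genes and below for 4 (24.8% and 31.4% of all genes). The hepatocyte array lay above every MEF array for 36 genes and below for 3 (50.1% and 42.0%), and every iHep array lay above the hepatocyte array for 2 and below for 35 (37.4% and 48.7%). The 3 genes called in no comparison were Acsl4, Crat and Acot2. The hepatocyte array is alone on its slide, so slide and cell type cannot be told apart, and as a single array it is assumed to vary like the other groups. Under quantile normalization the median over all genes for hepatocyte minus MEF was -0.002 in place of 0.194, the median of the 39 genes was 2.27, and for iHep minus hepatocyte it was -1.68, with Acsl1 the only gene of the 39 to lose its call (adjusted p = 0.0685).

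**Figure D1:**
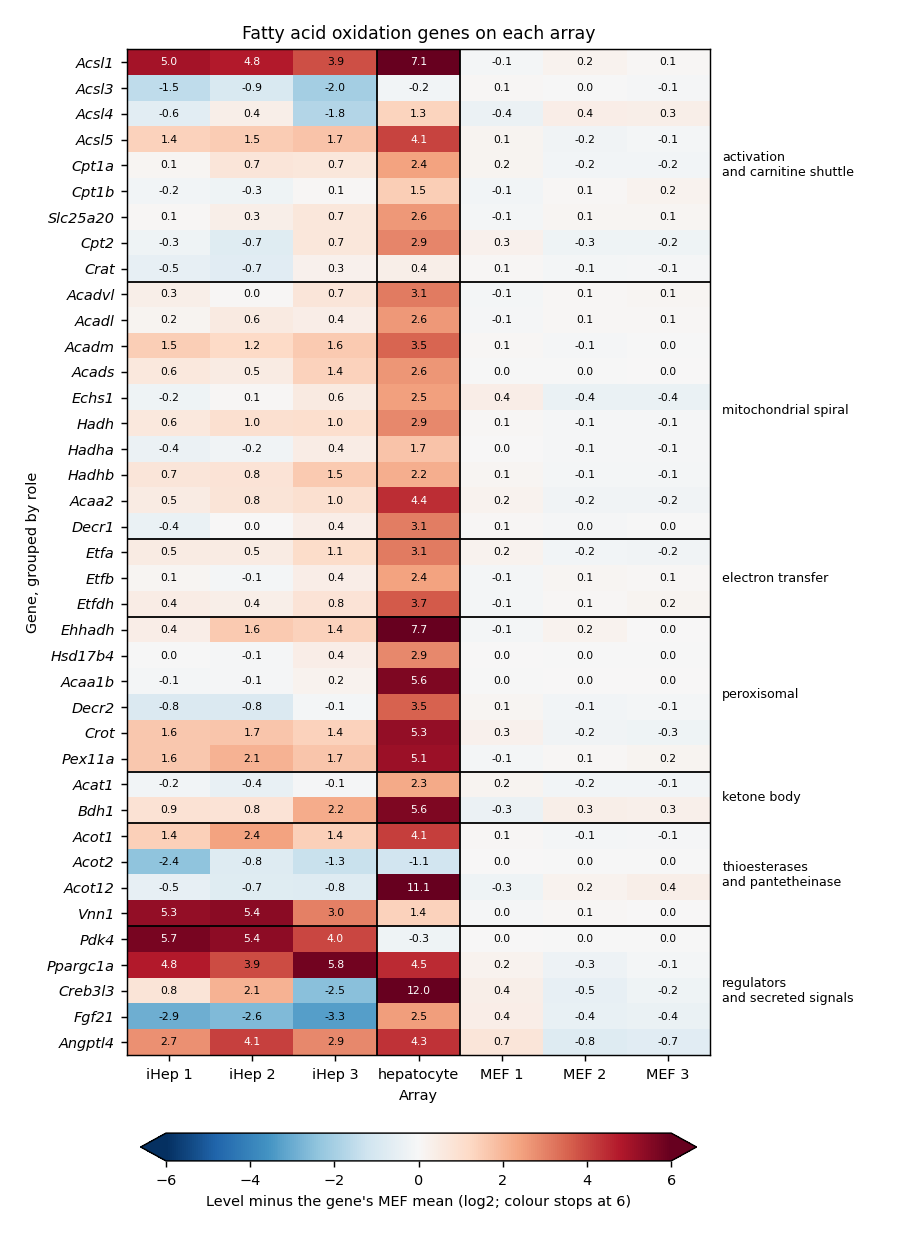
Level of each of the 39 genes on each array minus the gene's mean over the 2 MEF samples, in log2 units. Rows are genes grouped by role, columns are the 3 iHep, 1 hepatocyte and 3 MEF arrays, numbers are the plotted values and the colour stops at 6. The hepatocyte column is red in nearly all rows, and the iHep columns are strongly coloured in Acsl1, Vnn1, Pdk4, Ppargc1a and Angptl4.

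**Figure D2:**
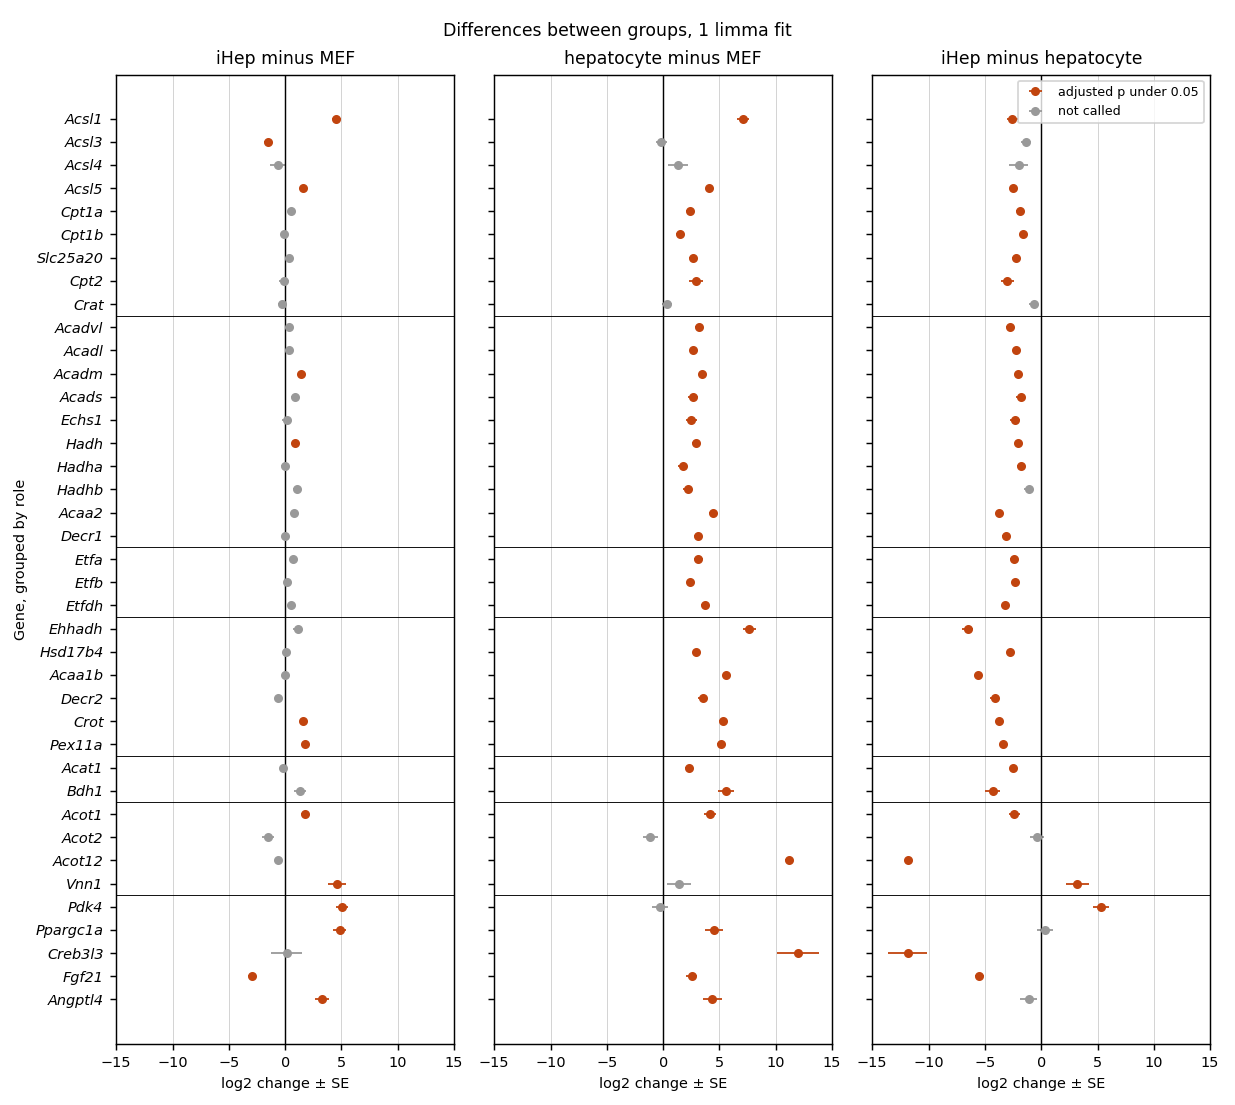
Change of each of the 39 genes in the 3 comparisons, as log2 difference ± SE from limma (iHep n = 3, hepatocyte n = 1, MEF n = 2). Red points have an adjusted p under 0.05: 13 of 39 for iHep minus MEF, 33 for hepatocyte minus MEF and 32 for iHep minus hepatocyte.

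Of the 9 activation and carnitine shuttle genes, 2 were called higher and 1 lower in iHep than in MEF (22.2% and 11.1%, against 10% and 13.3% of all genes), and 6 were called higher in hepatocytes than in MEF (66.7%, against 29.2%). With 9 genes the iHep counts lie near the shares of all genes. Acsl1, the main liver enzyme that joins long-chain fatty acids to coenzyme A, had levels of 5.76, 5.55 and 4.62 in iHep, 7.88 in hepatocytes and 0.65, 0.96 and 0.83 in MEF. All iHep arrays lay far above all MEF arrays and below the hepatocyte array. It rose by 4.54 ± 0.39 in iHep over MEF (23.3-fold, adjusted p = 0.00285), and the other 2 of its 3 probes differed by 4.77 and 4.86. In hepatocytes it was 7.11 ± 0.53 above MEF (adjusted p = 0.000631). Its probe lies at chr8:48034695-48034754 of build mm8, plus strand.

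Acsl5, a mitochondrial and endoplasmic reticulum enzyme of the same family, had levels of 2.91, 3.08 and 3.27 in iHep, 5.61 in hepatocytes and 1.69, 1.35 and 1.42 in MEF. It was 1.55 ± 0.21 higher in iHep than in MEF (adjusted p = 0.00944), and 1.39 without the MEF 2 and 3 pair (adjusted p = 0.0651). Acsl3, which serves lipid droplets and the endoplasmic reticulum, had levels of 0.06, 0.67 and -0.46 in iHep, 1.42 in hepatocytes and 1.64, 1.55 and 1.51 in MEF. It fell by 1.5 ± 0.37 in iHep against MEF (adjusted p = 0.0437), a call that was lost without MEF 1 (0.187), without the MEF 2 and 3 pair (0.166) or without type 1 (0.113). Acsl4, which prefers arachidonate, had levels of 2.12, 3.11 and 0.96 in iHep, 4.07 in hepatocytes and 2.38, 3.12 and 3.07 in MEF, so iHep and MEF arrays overlapped. Its second probe, well above background on all 7 arrays, differed by -1.64 between iHep and MEF, against -0.67 for the probe used. On that second probe iHep was at -0.37, 0.69 and -1.6 and MEF at 0.93, 1.51 and 1.5, without overlap. On the probes used, iHep lay below MEF without overlap for 31.4% of all genes. Of the 4 synthetases, 2 rose in iHep, 1 fell and 1 was not called.

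Cpt1a, Cpt1b, Slc25a20 and Cpt2 of the carnitine shuttle were called higher in hepatocytes than in MEF and not called in iHep against MEF. Cpt1a, the liver form of the outer-membrane carnitine palmitoyltransferase that limits entry, had levels of 2.6, 3.17 and 3.12 in iHep, 4.86 in hepatocytes and 2.63, 2.28 and 2.28 in MEF. Cpt1b, the muscle form of that enzyme, was at -3.52, -3.63 and -3.27 in iHep, -1.89 in hepatocytes and -3.51, -3.28 and -3.13 in MEF. For both genes iHep and MEF arrays overlapped, and the hepatocyte array stood above all others. Slc25a20, the carnitine-acylcarnitine carrier of the inner membrane, had levels of 0.64, 0.90 and 1.24 in iHep, 3.16 in hepatocytes and 0.42, 0.68 and 0.69 in MEF. Cpt2, the inner-membrane transferase that returns the acyl group to coenzyme A, had levels of 3.04, 2.59 and 3.97 in iHep, 6.22 in hepatocytes and 3.56, 3.03 and 3.05 in MEF. The 4 genes were 1.47 to 2.92 higher in hepatocytes than in MEF and differed by -0.12 to 0.50 between iHep and MEF, with adjusted p-values for iHep of 0.232 to 0.893. Without the MEF 2 and 3 pair, the hepatocyte call of Cpt2 was lost (adjusted p = 0.061). Crat, which moves acetyl groups onto carnitine, had levels of 0.98, 0.80 and 1.75 in iHep, 1.85 in hepatocytes and 1.58, 1.39 and 1.41 in MEF, and was called in no comparison.

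All 10 genes of the mitochondrial spiral were called higher in hepatocytes than in MEF, with a median of 2.76, and 2 of them, Acadm and Hadh, were called higher in iHep, with a median of 0.56 over the 10. Of all genes 29.2% were called higher in hepatocytes than in MEF and 10% in iHep than in MEF, and 2 of 10 lies near the last share. Acadm, the medium-chain acyl-CoA dehydrogenase, had levels of 4.71, 4.41 and 4.79 in iHep, 6.72 in hepatocytes and 3.29, 3.14 and 3.19 in MEF. The 3 groups did not overlap. It rose by 1.41 ± 0.20 in iHep over MEF (2.65-fold, adjusted p = 0.0106) and iHep minus hepatocyte was -2.08 ± 0.26 (adjusted p = 0.00306). The iHep call against MEF was lost without MEF 1 (1.47, adjusted p = 0.0637) or without the MEF 2 and 3 pair (1.34, adjusted p = 0.0729). Its start-site window, printed above, holds AGGTCA at its far end, on the opposite strand, where it is read as TGACCT. The other dehydrogenases act on other chain lengths. Acadvl, for very long chains, had levels of 4.67, 4.39 and 5.05 in iHep, 7.48 in hepatocytes and 4.24, 4.42 and 4.46 in MEF. Acadl, for long chains, had levels of 1.11, 1.51 and 1.34 in iHep, 3.56 in hepatocytes and 0.87, 1.01 and 1.04 in MEF. Acads, for short chains, had levels of 1.52, 1.35 and 2.28 in iHep, 3.53 in hepatocytes and 0.87, 0.86 and 0.91 in MEF. All iHep arrays lay above all MEF arrays for Acadl and Acads, as for 24.8% of all genes, but neither was called (adjusted p = 0.249 and 0.132). Acads lost its call against hepatocytes without type 1 (adjusted p = 0.0541).

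Later steps of the spiral add water, oxidise again and split off acetyl-CoA. Hadh, the hydroxyacyl-CoA dehydrogenase of short and medium chains, had levels of 2.83, 3.19 and 3.20 in iHep, 5.09 in hepatocytes and 2.29, 2.13 and 2.14 in MEF. Its rise of 0.86 ± 0.21 in iHep (adjusted p = 0.0425) was lost when any 1 iHep or MEF sample was left out (adjusted p = 0.0633 to 0.188). Echs1, the short-chain enoyl-CoA hydratase, had levels of 2.73, 3.05 and 3.53 in iHep, 5.45 in hepatocytes and 3.37, 2.58 and 2.55 in MEF. Acaa2, the mitochondrial thiolase, had levels of 4.81, 5.09 and 5.29 in iHep, 8.77 in hepatocytes and 4.54, 4.09 and 4.10 in MEF. Among the 10 spiral genes Acaa2 had the largest change in hepatocytes over MEF, 4.45 ± 0.34 (21.9-fold, adjusted p = 0.000668), and in iHep it was 0.75 ± 0.25 (adjusted p = 0.095). Decr1, a dienoyl-CoA reductase needed for unsaturated chains, had levels of -2.83, -2.39 and -2.02 in iHep, 0.68 in hepatocytes and -2.36, -2.46 and -2.44 in MEF, so that its iHep and MEF arrays overlapped.

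Hadhb had levels of 3.62, 3.69 and 4.43 in iHep, 5.04 in hepatocytes and 3.01, 2.75 and 2.74 in MEF. Hadha had levels of -0.26, -0.11 and 0.54 in iHep, 1.82 in hepatocytes and 0.14, 0.05 and 0.05 in MEF. These genes start 273 bases apart, and in hepatocytes both were called higher, by 2.16 ± 0.42 for Hadhb and 1.73 ± 0.39 for Hadha. In iHep minus MEF, Hadhb was at 1.04 ± 0.32 (adjusted p = 0.076) and Hadha at -0.04 ± 0.29 (adjusted p = 0.941). The Hadha value depends on the probe. A dimmer probe of Hadha, well above background on all 7 arrays, differed by 1.55 between iHep and MEF and by 2.86 between hepatocytes and MEF, and a further probe was well above background on none. The hepatocyte calls against MEF were lost for Hadha without MEF 1 (adjusted p = 0.0625) or without the MEF 2 and 3 pair (0.0677), and for Hadhb without that pair (0.0507).

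Electron transfer genes take the electrons of the first step to the respiratory chain. All 3 were called higher in hepatocytes than in MEF and 0 in iHep than in MEF by limma (0 at an unadjusted p under 0.05). Of all genes, 29.2% were called higher in hepatocytes than in MEF and 10% in iHep than in MEF. Etfa, the alpha subunit of the electron transfer flavoprotein, had levels of 3.13, 3.13 and 3.77 in iHep, 5.79 in hepatocytes and 2.85, 2.5 and 2.46 in MEF. Etfb, the beta subunit, had levels of 5.13, 4.91 and 5.41 in iHep, 7.45 in hepatocytes and 4.91, 5.16 and 5.12 in MEF. Etfdh, the dehydrogenase that hands the electrons to ubiquinone, had levels of 3.32, 3.26 and 3.69 in iHep, 6.59 in hepatocytes and 2.77, 2.98 and 3.05 in MEF. Every iHep array of Etfa and Etfdh was above every MEF array, as for 24.8% of all genes, whereas those of Etfb overlapped. Their changes in iHep over MEF were 0.12 to 0.68 (adjusted p = 0.151 to 0.731), and those in hepatocytes over MEF were 2.42 to 3.70 (adjusted p = 0.000786 to 0.00287).

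The median difference between hepatocytes and MEF was 5.19 for the 6 peroxisomal genes, 2.63 for the 22 genes of activation, shuttle, spiral and electron transfer, and 0.19 for all genes; the difference between these medians was not tested. All 6 were called higher in hepatocytes than in MEF and all 6 lower in iHep than in hepatocytes, against 29.2% and 28.3% of all genes. Ehhadh, the bifunctional enzyme of the peroxisomal spiral, had levels of -2.39, -1.18 and -1.39 in iHep, 4.89 in hepatocytes and -2.90, -2.55 and -2.74 in MEF. It was 7.66 ± 0.55 higher in hepatocytes than in MEF (202-fold, adjusted p = 0.000601). In iHep it stood 1.12 ± 0.41 above MEF (adjusted p = 0.117) and was called without type 1 (1.48, adjusted p = 0.0328). Acaa1b, a peroxisomal thiolase, had levels of 1.17, 1.24 and 1.5 in iHep, 6.91 in hepatocytes and 1.29, 1.30 and 1.31 in MEF, the iHep arrays lying around the MEF arrays. Its change in hepatocytes over MEF was 5.61 ± 0.26 and in iHep over MEF 0.01 ± 0.19. Acaa1b and its close copy Acaa1a could share signal on these probes, which was not tested.

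Crot and Pex11a were the peroxisomal genes called higher in iHep than in MEF, 2 of 6 (33.3%, against 10% of all genes). Crot, the octanoyltransferase that exports shortened chains as carnitine esters, had levels of 2.72, 2.78 and 2.46 in iHep, 6.37 in hepatocytes and 1.36, 0.87 and 0.82 in MEF. It rose by 1.55 ± 0.24 in iHep over MEF (adjusted p = 0.0133), and its second probe differed by 1.93. Without the MEF 2 and 3 pair the value was 1.29 (adjusted p = 0.0725). Pex11a, a membrane protein that promotes peroxisome division, had levels of 1.79, 2.26 and 1.84 in iHep, 5.31 in hepatocytes and 0.06, 0.28 and 0.37 in MEF. It rose by 1.77 ± 0.23 (3.41-fold, adjusted p = 0.00831), and by 1.64 without MEF 1 (adjusted p = 0.0635). For both genes the 3 groups were apart with iHep in the middle. Hsd17b4, the other bifunctional enzyme, had levels of 3.73, 3.71 and 4.15 in iHep, 6.67 in hepatocytes and 3.80, 3.73 and 3.74 in MEF. Decr2, the peroxisomal dienoyl-CoA reductase, had levels of -0.48, -0.48 and 0.25 in iHep, 3.89 in hepatocytes and 0.51, 0.22 and 0.25 in MEF. In iHep minus MEF these last genes were at 0.09 ± 0.22 and -0.61 ± 0.30, neither of them called, and without type 3 Decr2 was called lower (-0.85, adjusted p = 0.0484).

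Both ketone body genes were called higher in hepatocytes than in MEF and lower in iHep than in hepatocytes (29.2% and 28.3% of all genes). In iHep against MEF, 0 of them were called by limma (0 at an unadjusted p under 0.05), while 10% of all genes were called higher and 13.3% lower. Bdh1, which turns acetoacetate into beta-hydroxybutyrate, had levels of 1.57, 1.53 and 2.93 in iHep, 6.31 in hepatocytes and 0.37, 1.03 and 1.02 in MEF. It was 5.61 ± 0.70 higher in hepatocytes than in MEF (adjusted p = 0.00282) and 1.31 ± 0.52 in iHep over MEF (adjusted p = 0.138), and its second probe gave 4.27 and 0.55. Acat1, the mitochondrial thiolase that forms acetoacetyl-CoA, had levels of 1.85, 1.59 and 1.93 in iHep, 4.28 in hepatocytes and 2.18, 1.85 and 1.87 in MEF. It was 2.26 ± 0.29 higher in hepatocytes (adjusted p = 0.00286) and -0.23 ± 0.21 in iHep (adjusted p = 0.486).

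Of the 6 other ketone body genes, 2 were called higher and 2 lower in iHep than in MEF (10% and 13.3% of all genes). In hepatocytes against MEF, 4 were called higher and 2 lower (29.2% and 24.4% of all genes). In iHep against hepatocytes, 1 was called higher and 3 lower (21.5% and 28.3% of all genes). Bdh2, a cytosolic hydroxybutyrate dehydrogenase, was at -2.82, -3.06 and -3.26 in iHep, 4.01 in hepatocytes and 0.79, 0.77 and 0.78 in MEF. It was high in hepatocytes and lowest in iHep, which differed from MEF by -3.83 ± 0.21 (14.3-fold lower, adjusted p = 0.00094). Oxct1, the transferase that tissues other than liver use to burn ketone bodies, had levels of 3.90, 3.89 and 5.17 in iHep, -0.63 in hepatocytes and 5.14, 5.16 and 5.22 in MEF. It was lower in hepatocytes than in MEF, by a difference of -5.80 ± 0.61 (adjusted p = 0.00167), and 4.95 ± 0.57 higher in iHep than in hepatocytes (adjusted p = 0.00258), and iHep against MEF was not called (-0.85 ± 0.45, adjusted p = 0.237). Slc16a1, a carrier of lactate and ketone bodies, rose by 1.89 ± 0.30 in iHep over MEF (adjusted p = 0.0145).

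**Figure D3:**
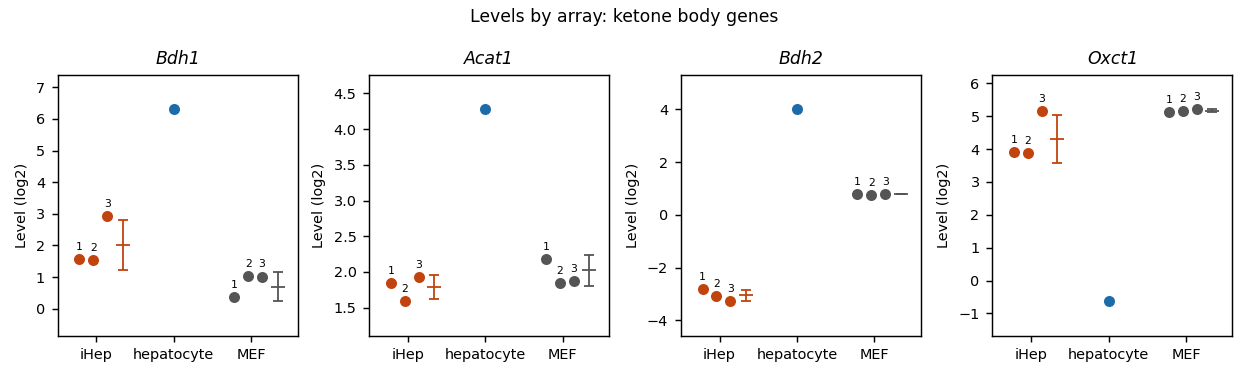
Levels (log2 signal minus the array's 75th percentile) of 4 ketone body genes on every array, with iHep, hepatocyte and MEF from left to right. Points are arrays numbered by type or replicate, and bars are the mean ± SD of iHep (n = 3) and of MEF with MEF 2 and 3 counted as 1 (n = 2). The hepatocyte array is highest in Bdh1, Acat1 and Bdh2, and lowest in Oxct1 at -0.63.

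Thioesterases release fatty acids from coenzyme A. Acot1, the cytosolic long-chain enzyme, had levels of 1.6, 2.6 and 1.61 in iHep, 4.31 in hepatocytes and 0.24, 0.07 and 0.11 in MEF. Every iHep array was above MEF and below the hepatocyte array. It rose by 1.77 ± 0.37 in iHep over MEF (adjusted p = 0.0292), and the call was lost without type 1 (adjusted p = 0.0538), without MEF 1 (0.129) or without the MEF 2 and 3 pair (0.147). Acot2, the neighbouring mitochondrial copy of Acot1, had levels of -3.80, -2.16 and -2.70 in iHep, -2.50 in hepatocytes and -1.35, -1.40 and -1.39 in MEF, and was called in no comparison (-1.51 ± 0.51 in iHep minus MEF, adjusted p = 0.0955). Acot1 and Acot2 are close copies, and shared signal between their probes was not tested. Acot12, a cytosolic acetyl-CoA hydrolase of liver, was at -8.15, -8.42 and -8.46 in iHep, 3.45 in hepatocytes and -7.95, -7.49 and -7.32 in MEF. No iHep or MEF array was well above background, so it was at least 774-fold lower in iHep than in hepatocytes. It was at least 891-fold higher in hepatocytes than in MEF. Because Acot12 passed the filter through the hepatocyte array alone, its calls were favoured by that filter and no p-value is given. Normexp background correction gave smaller fitted differences for Acot12, -7.2 for iHep minus hepatocyte and 7.09 for hepatocyte minus MEF.

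Vnn1 and Pdk4 were the genes of the 39 that stood above hepatocytes in iHep. Vnn1 encodes a membrane-bound pantetheinase, an enzyme of coenzyme A recycling. It had levels of 4.94, 5.11 and 2.72 in iHep, 1.05 in hepatocytes and -0.37, -0.23 and -0.29 in MEF, with all iHep arrays above all others. It was 4.57 ± 0.79 higher in iHep than in MEF (23.8-fold, adjusted p = 0.0171) and 3.21 ± 0.99 higher in iHep than in hepatocytes (9.22-fold, adjusted p = 0.0477). The call against hepatocytes was lost without type 1 (adjusted p = 0.1), type 2 (0.0837), MEF 1 (0.0922) or the MEF 2 and 3 pair (0.0922), and the call against MEF without MEF 1 (0.104) or that pair (0.0985). Without type 3, Vnn1 was also called higher in hepatocytes than in MEF (1.37, adjusted p = 0.0102).

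Pdk4 encodes a kinase that shuts off pyruvate dehydrogenase and so spares glucose when fatty acids are burned. It had levels of 4.83, 4.50 and 3.16 in iHep, -1.14 in hepatocytes and -0.84, -0.88 and -0.90 in MEF. Every iHep array lay above the 75th percentile of its array and every other array below it. Pdk4 was 5.03 ± 0.54 higher in iHep than in MEF (32.8-fold, adjusted p = 0.00487) and 5.31 ± 0.68 higher in iHep than in hepatocytes (39.7-fold, adjusted p = 0.00343), whereas hepatocytes and MEF differed by -0.28 ± 0.72 (adjusted p = 0.762). Both iHep calls held under every alternative, with a highest adjusted p of 0.0444 against MEF and 0.0133 against hepatocytes. Its probe lies at chr6:5433441-5433500 of mm8, minus strand. Its start-site window, printed above, holds no AGGTCA and 1 CCAAT. Its relatives Pdk1, Pdk2 and Pdk3, chosen for mention after the values of Pdk4 were seen, did not share its pattern. Pdk1 and Pdk2 were 2.91 ± 0.32 and 3.18 ± 0.66 higher in hepatocytes than in MEF (adjusted p = 0.00195 and 0.0134) and were not called in iHep against MEF (0.59 and 0.73). Pdk3 was at -0.01, -0.19 and -0.06 in iHep, -7.94 in hepatocytes, where it was not well above background, and 1.48, 1 and 1.04 in MEF. It was lower in iHep than in MEF, with a difference of -1.34 ± 0.22 (adjusted p = 0.0146).

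Ppargc1a encodes a coactivator that raises mitochondrial and fasting genes. It had levels of 1.77, 0.92 and 2.81 in iHep, 1.48 in hepatocytes and -2.77, -3.32 and -3.12 in MEF. The hepatocyte array fell within the iHep range, and both groups stood above all MEF arrays. Ppargc1a rose by 4.83 ± 0.59 in iHep over MEF (28.4-fold, adjusted p = 0.00671) and was 4.48 ± 0.79 higher in hepatocytes than in MEF (adjusted p = 0.00794). The difference between iHep and hepatocytes was 0.35 ± 0.74 (adjusted p = 0.716), and a second probe gave 4.33, 3.60 and 0.73 for these 3 comparisons in the same order. Without the MEF 2 and 3 pair its iHep call was lost (4.61, adjusted p = 0.0573).

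Angptl4 encodes a secreted inhibitor of lipoprotein lipase. It had levels of 5.65, 7.02 and 5.81 in iHep, 7.28 in hepatocytes and 3.65, 2.14 and 2.26 in MEF, so iHep lay below the hepatocyte array and above all MEF arrays, and MEF 1 stood apart from MEF 2 and 3. It was 3.23 ± 0.62 higher in iHep than in MEF (9.41-fold, adjusted p = 0.0229) and 4.36 ± 0.83 higher in hepatocytes than in MEF (adjusted p = 0.0105). The iHep call was lost without MEF 1 (3.96, adjusted p = 0.0513) or without the MEF 2 and 3 pair (2.51, adjusted p = 0.112).

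Fgf21 and Creb3l3 were high in hepatocytes and low in iHep. Fgf21, the hormone that the fasted liver releases, was at -6.3, -6 and -6.67 in iHep, -0.84 in hepatocytes and -2.94, -3.79 and -3.74 in MEF, and in iHep only type 2 was well above background. Its fitted difference was -2.97 ± 0.35 for iHep minus MEF (adjusted p = 0.0062), a size that rests on 1 iHep array well above background, 2.52 ± 0.47 for hepatocyte minus MEF (adjusted p = 0.00951) and -5.48 ± 0.44 for iHep minus hepatocyte (adjusted p = 0.000907). Its second probe gave -3.07 for iHep minus MEF, and normexp background correction gave a smaller value, -1.10 (adjusted p = 0.0109), and -3.03 for iHep minus hepatocyte. Creb3l3, a liver transcription factor of the endoplasmic reticulum that acts on fasting genes, was at -5.10, -3.80 and -8.38 in iHep, 6.09 in hepatocytes and -5.52, -6.37 and -6.12 in MEF. In iHep it was well above background in types 1 and 2 and not in type 3, and iHep arrays spanned the MEF arrays. It was 11.97 ± 1.86 higher in hepatocytes than in MEF (4017-fold, adjusted p = 0.00545) and iHep minus hepatocyte was -11.86 ± 1.76 (adjusted p = 0.00534). Normexp background correction gave 9.42 and -9.2 for these differences of Creb3l3. Of its windows in RefSeq, the one printed above holds AGGTCA starting at base -202 from the start, and the other, not printed, holds no AGGTCA.

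**Figure D4:**
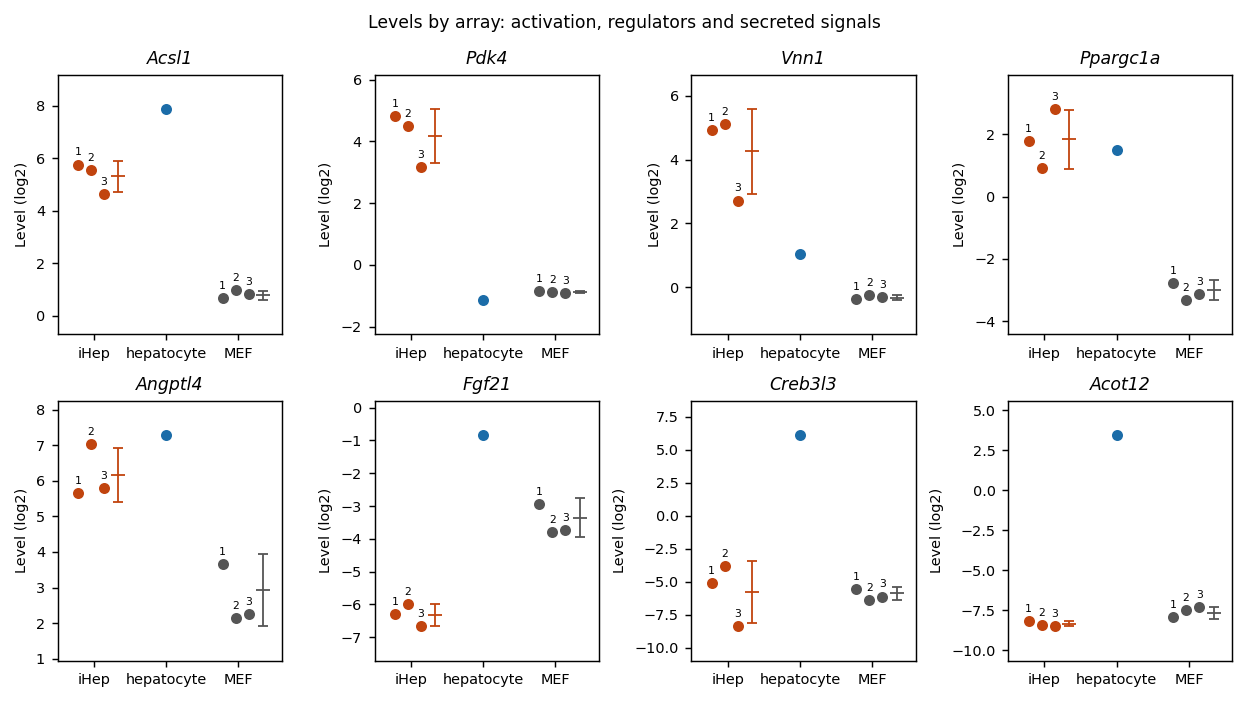
Levels (log2 signal minus the array's 75th percentile) of 8 genes on every array, with iHep, hepatocyte and MEF from left to right; each panel has its own scale. Points are arrays numbered by type or replicate, and bars are the mean ± SD of iHep (n = 3) and of MEF with MEF 2 and 3 counted as 1 (n = 2). Pdk4 and Vnn1 are highest in iHep, and Fgf21, Creb3l3 and Acot12 are highest in hepatocytes, with Fgf21 lowest in iHep.

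Leaving out a MEF sample leaves 1 in that group, and it lowered the counts of calls for iHep over MEF. The median change of the genes described here did not fall. It was 0.37 with all samples, 0.48 without MEF 1 and 0.46 without the MEF 2 and 3 pair. For all genes it was -0.045, -0.053 and -0.058. How many of all genes kept their calls in these fits is not given. The fewer calls thus cannot be read as a trait of the genes described here. Within slide 1, which holds all iHep arrays and MEF 1, all 13 genes called for iHep against MEF kept their direction. The within-slide values were 4.66 for Acsl1, 1.90 for Pex11a, 5.01 for Pdk4 and -3.38 for Fgf21. Acsl1, Pdk4 and Fgf21 were called under all 16 alternatives. These are not 16 separate checks. Slide as a block, within slide 1 and leaving out the MEF 2 and 3 pair gave the same iHep minus MEF values. For hepatocytes over MEF, 30 of the 33 calls held under all 12 alternatives that apply, and for iHep against hepatocytes 29 of 32.

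A further 79 genes around these were listed, and 78 were tested. In hepatocytes against MEF 61 of 78 were called higher and 7 lower, in iHep against MEF 13 higher and 8 lower, and in iHep against hepatocytes 6 higher and 62 lower. For iHep against MEF these are 16.7% and 10.3%, against 10% and 13.3% of all genes, so the lower share is under that of all genes. For hepatocytes against MEF they are 78.2% and 8.97%, against 29.2% and 24.4%. For iHep against hepatocytes they are 7.69% and 79.5%, against 21.5% and 28.3%. Among the genes named from these lists, Fabp1, Slc27a5, Acsm5, Acot3, Cyp4a14 and Klb passed the filter through the hepatocyte array alone. Their calls as high in hepatocytes were favoured by that filter, so no p-values are given for them. All of them are among the 61 and the 62 above, where their calls are no support. Of the 12 other mitochondrial oxidation genes, all 12 were called higher in hepatocytes than in MEF, with Acad11, Sirt3 and Mmut, the last being methylmalonyl-CoA mutase, at 5.22, 4.61 and 3.72. In iHep 1 of them was called, Eci1, an enoyl-CoA isomerase (0.81 ± 0.19, adjusted p = 0.0397). Of the 25 other peroxisomal genes, 23 were called higher in hepatocytes than in MEF, with Acot3 among them, and 4 in iHep than in MEF. Acox2, the oxidase of branched chains and bile acid intermediates, was at 0.81, 2.80 and 2.77 in iHep, 5.15 in hepatocytes and -7.99, -7.32 and -8.90 in MEF, where no array was well above background. It was at least 355-fold higher in iHep than in MEF (adjusted p = 0.00149). Pex7 and Acot8 rose in iHep by 1.12 and 1.02. In hepatocytes over MEF, Acox2 was at least 2890-fold higher, and Phyh and Hacl1 were 7.43 and 6.32 higher. In iHep against hepatocytes the differences of Hacl1 and Cat, the catalase, were -6.86 and -5.97, and Acot3, not well above background in iHep, was at least 16.8-fold lower.

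Of the 14 uptake and activation genes, 4 were called higher and 1 lower in iHep than in MEF (28.6% and 7.14%, against 10% and 13.3% of all genes). In hepatocytes against MEF, 8 were called higher and 2 lower (57.1% and 14.3%, against 29.2% and 24.4% of all genes). Fabp1, Slc27a5 and Acsm5, which passed the filter through the hepatocyte array alone, are among the 8, and their calls there are no support. Fabp1, the liver fatty acid binding protein, was at -8.15, -3.98 and -0.44 in iHep, 9.32 in hepatocytes and -7.97, -9.11 and -8.89 in MEF. It was at least 51940-fold higher in hepatocytes than in MEF, and in iHep it was well above background on 2 of 3 arrays. Slc27a2, a transporter and synthetase of very long chains, was at -1.21, 2.31 and 1.04 in iHep, 7.15 in hepatocytes and -8.05, -9.07 and -8.82 in MEF, at least 133-fold higher in iHep than in MEF (adjusted p = 0.0061). Its relative Slc27a5, which also conjugates bile acids, was at -7.01, -7.32 and -7.11 in iHep and 7.57 in hepatocytes, at least 13390-fold lower in iHep. The medium-chain synthetase genes also parted: Acsm3 was at 3.66, 2.47 and 5.18 in iHep, 3.86 in hepatocytes and -7.52, -6.63 and -6.64 in MEF, and was higher in iHep than in MEF (fitted difference 10.85 ± 0.84, adjusted p = 0.00216), where 1 of 3 arrays was well above background, so that the size is uncertain. Acsm1 was at least 53.6-fold higher in iHep than in MEF, and Acsm5 was lower in iHep than in hepatocytes, with a difference of -9.55 ± 0.72.

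Of the 21 PPAR axis and lipolysis genes tested, 2 were called higher and 4 lower in iHep than in MEF (9.52% and 19%, against 10% and 13.3% of all genes). In hepatocytes against MEF, 14 were called higher and 2 lower (66.7% and 9.52%, against 29.2% and 24.4% of all genes). Cyp4a14 and Klb, which passed the filter through the hepatocyte array alone, are among the 14, and their calls there are no support. Ppara was at -3.05, -2.80 and -3.04 in iHep, 3.76 in hepatocytes and -4.21, -4.81 and -4.81 in MEF. It was 8.27 ± 0.34 higher in hepatocytes than in MEF (308-fold, adjusted p = 0.000222), 1.55 ± 0.25 higher in iHep than in MEF (adjusted p = 0.0146) and lower in iHep than in hepatocytes by a difference of -6.72 ± 0.32 (adjusted p = 0.000264). Pparg, the related receptor of fat cells, was at 2.58, 3.22 and 3.78 in iHep, 1.37 in hepatocytes and -0.44, -1.09 and -1.08 in MEF, 3.95 ± 0.42 higher in iHep than in MEF (adjusted p = 0.00499) and 1.82 ± 0.54 higher than in hepatocytes (adjusted p = 0.0415). All iHep arrays exceeded the hepatocyte array for Pparg and fell far below it for Ppara. The fatty acid hydroxylase Cyp4a14, a known target of the Ppara receptor in liver, and its relative Cyp4a12a stood at 6.35 and 6.42 in hepatocytes. Cyp4a14, which no iHep array measured well above background, was at least 5724-fold lower in iHep than in hepatocytes. For Cyp4a12a iHep minus hepatocyte was -11.45 ± 0.42 (adjusted p = 0.000177). G0s2, an inhibitor of lipolysis, and Plin2, a lipid droplet coat protein, fell in iHep against MEF by 2.74 ± 0.66 and 1.75 ± 0.33 (adjusted p = 0.042 and 0.0213). Klb, the coreceptor for the Fgf21 hormone, was at -3.29, -8.47 and -5.74 in iHep, 2.73 in hepatocytes and -7.65, -8.21 and -7.14 in MEF.

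The 3 iHep types were compared as single arrays, with no test. With MEF 1, their slide mate, subtracted, the 39 genes had medians of 0.27, 0.49 and 0.75 in types 1, 2 and 3, while the median of all genes was -0.06, -0.09 and -0.06. Type 3 was the highest type for 9 of the 10 spiral genes, all 3 electron transfer genes and both ketone body genes, and for 7495 of all 19135 genes. Among other genes, type 3 was the lowest for Acsl1, Pdk4, Vnn1 and Creb3l3 and the highest for Ppargc1a. The hepatocyte markers, albumin among them, had another order in sum. Their summed level was 8.25, 9.12 and 5.94 in types 1, 2 and 3, 11.38 in hepatocytes and -2.76 to -2.63 in MEF. Alb was at 6.36, 7.83 and -0.29 in the 3 types. Singly, 5 of the 8 hepatocyte markers were highest in type 1, 3 in type 2 and 0 in type 3. These counts include Cyp2e1 and Cyp7a1, not well above background in iHep. Alb, Apoa1, Ttr and Serpina1d were lowest in type 3. Tat was lowest in type 2 (-0.37, -2.66 and -0.95) and Cps1 in type 1 (-8.02, -2.54 and -4.38). Summed levels of the intestinal epithelium markers ran the other way, at 8.40, 7.79 and 9.60 in the types. Singly, 4 of these 6 markers were highest in type 3 and 2 in type 2, and Fabp2 was lowest in type 3.

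**Figure D5:**
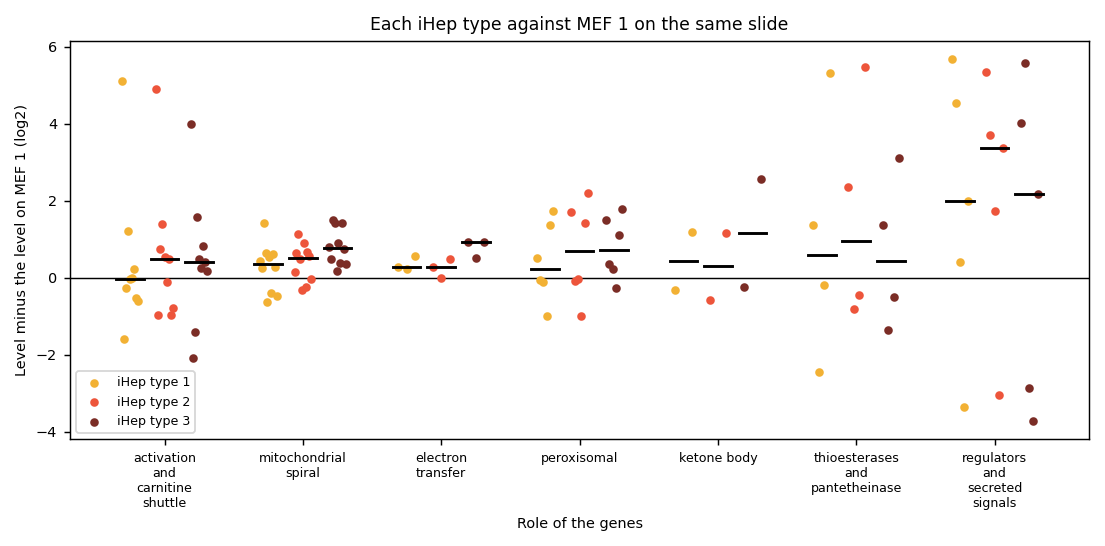
Level of each of the 39 genes in each iHep type minus its level on MEF 1, which lay on the same slide, in log2 units. Genes are grouped by role, each point is 1 gene on 1 array, and black lines are medians: 0.35, 0.52 and 0.78 in types 1, 2 and 3 for the mitochondrial spiral, and 0.28, 0.28 and 0.92 for electron transfer.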

How the data were processed

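The intensity values came from 7 scanner files that the authors deposited. Per the file headers they were made with Agilent Feature Extraction 9.5.1.1 as background-subtracted, detrended processed signals of Cy3, with flags for signal well above background and probe positions on build mm8. A deposited table of processed intensity, whose scaling is not stated, correlated with the scanner values at r = 0.9988 to 0.9999 and served as an alternative. Values were taken as log2 of the deposited intensity minus each array's 75th percentile, after control and outlier spots were left out. Probes were named through RefSeq by accession (24358), by symbol or synonym (8714) or as in the scanner file (8066). The brightest probe over all arrays stood for a gene. Of 27583 genes, 19135 were tested, those that all arrays of 1 group or more flagged as well above background. MEF 2 and MEF 3 were averaged. Limma 3.58.1 in R 4.3.3 fitted the 3 groups together (lmFit, eBayes, 3 residual degrees of freedom).

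A fold is "at least" a value where all arrays of one group lacked a flag for signal above background; the bright group's mean is then divided by the dim group's mean of the higher of the dim probe's own signal and the lowest signal among probes well above background on each array. The number of arrays limits the precision. All 39 genes were named. Of the other listed genes, those named were the 3 called genes with the largest change per list and comparison, with Ppara in any case; some of the genes this rule names are not reported here. Genes and lists were chosen with earlier results of these data known. Whether the numbers in the sample titles pair iHep with MEF arrays could not be decided, and they were used as a block only in an alternative. Alternatives changed the background correction, the scaling, the filter, the probe rule, the samples in the fit and the slide.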

Additional observations from a re-analysis of the deposited data

How the results depend on the processing

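No called change of the 39 genes turned its direction under any alternative. Counts of calls for iHep over MEF moved most. The 11 higher genes became 3 with slide as a block and 3 within slide 1, which use the same arrays, and 3 to 10 when 1 sample was left out. The 2 lower genes became 1 with no filter on dim probes, 1 with the filter of at least 1 array, 1 with slide as a block, 1 within slide 1, 4 with MEF 2 and MEF 3 as separate samples, and 1 to 3 when 1 sample was left out. With more genes tested, the 2 genes higher in iHep than in hepatocytes became 1 with no filter and 1 with the filter of at least 1 array, and 1 to 2 when 1 sample was left out. Apart from the filters, the cause was not tested. The counts for hepatocytes over MEF (30 to 34 higher) and for genes lower in iHep than in hepatocytes (29 to 32) stayed within 1.5 times the values given. With the title number as a replicate block and the 3 MEF arrays apart, 12 genes were called higher and 2 lower in iHep than in MEF, the added gene being Ehhadh (adjusted p = 0.0467). The deviations of same-numbered iHep and MEF arrays had correlations of 0.029, -0.0153 and -0.000573. MEF 2 and MEF 3 are nearly alike and the iHep arrays are different types, so these correlations cannot decide whether the numbers pair samples. Signal over background limited Acot12, Fgf21 and Creb3l3 in iHep.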
